A study of Mus musculus with 12 samples.

Results

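The antimicrobial gene set of Paneth cells consists here of 10 genes taken by name from 54532 genes of an RNA-seq study of mouse intestine: *Lyz1*, *Mmp7*, *Ang4*, *Itln1*, *Pla2g2a* and the alpha-defensin genes *Defa5*, *Defa17*, *Defa22*, *Defa24* and *Defa30*. The study removed an intestinal enhancer upstream of *Ctnnb1*, the gene of β-catenin, and profiled 12 libraries as fragments scaled to gene length and library size (FPKM). In small intestinal crypts, 3 libraries of wild-type mice were set beside 3 of mice without the enhancer (*Ctnnb1Δi.enh*, labelled ieCtnnb1KO). In colon tumors, 3 libraries of *ApcMin/+* mice (labelled APCmin/+), which carry a truncating allele of the tumor suppressor *Apc*, were set beside 3 of *Ctnnb1Δi.enh;ApcMin/+* mice. All mice were adult, untreated and on a C57BL/6 background, and the deletion was present in the germ line and so in every cell, epithelial or not. Of these mice, the study's figure legends give an exact age for those with tumors only. The libraries held 14457896 to 16156712 fragments on genes. For these genes 2 libraries stood high in their group, wild-type crypt replicate 3 and *Ctnnb1Δi.enh;ApcMin/+* tumor replicate 2, so the fold changes of the set are also given without them. Wild-type crypt replicate 1 lay at the other end of its group, and fold changes without it are given too. The mean log2 level of the 10 genes was 10.19, 10.77 and 11.13 in wild-type crypt replicates 1, 2 and 3. The study's figure legends give 3 mice for each group of each tissue, and the p-values below rest on the spread between 3 libraries per group. As the tissue was profiled in bulk, fewer Paneth cells and less RNA per Paneth cell cannot be told apart.

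Paneth cells sit at the base of small intestinal crypts between the stem cells and release granules of antimicrobial proteins into the crypt lumen. Their maturation depends on Wnt signals, which act through β-catenin and factors of the TCF family. The colon normally has few or no such cells, while tumors with mutant *Apc* can contain cells with Paneth features.

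Since 5 of the 10 genes are copies within a single cluster, their coding sequences are shown first, because how much they differ limits how far their values can be read apart. All 10 genes had the same start and end in the tables and in GENCODE M21, on build GRCm38. The cluster spans chr8:21025545-21735471 and holds 28 protein-coding genes, of which 22 are named Defa. Each of the 5 coding sequences below has 282 bases, from start to stop codon, on the plus strand. Capitals mark bases that differ from *Defa24*, the gene of the 10 with the highest mean FPKM in crypts, at chr8:21734494-21735471 (ENSMUSG00000064213).
Defa24: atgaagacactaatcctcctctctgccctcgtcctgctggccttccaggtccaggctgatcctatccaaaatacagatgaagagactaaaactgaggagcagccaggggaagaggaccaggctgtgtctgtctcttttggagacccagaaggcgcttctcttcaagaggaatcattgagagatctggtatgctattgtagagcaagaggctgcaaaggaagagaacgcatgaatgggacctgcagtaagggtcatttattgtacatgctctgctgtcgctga
Defa30: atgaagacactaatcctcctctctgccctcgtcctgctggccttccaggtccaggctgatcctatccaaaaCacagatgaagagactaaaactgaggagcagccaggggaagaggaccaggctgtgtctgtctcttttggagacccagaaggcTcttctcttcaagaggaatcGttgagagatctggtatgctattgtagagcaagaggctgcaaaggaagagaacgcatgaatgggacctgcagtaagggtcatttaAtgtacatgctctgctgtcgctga
Defa17: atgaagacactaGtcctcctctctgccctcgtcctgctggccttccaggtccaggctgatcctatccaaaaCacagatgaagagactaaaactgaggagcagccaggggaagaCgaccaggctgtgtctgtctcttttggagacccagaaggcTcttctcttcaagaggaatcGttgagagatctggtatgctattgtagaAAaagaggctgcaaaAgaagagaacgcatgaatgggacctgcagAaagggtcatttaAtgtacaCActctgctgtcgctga
Defa5: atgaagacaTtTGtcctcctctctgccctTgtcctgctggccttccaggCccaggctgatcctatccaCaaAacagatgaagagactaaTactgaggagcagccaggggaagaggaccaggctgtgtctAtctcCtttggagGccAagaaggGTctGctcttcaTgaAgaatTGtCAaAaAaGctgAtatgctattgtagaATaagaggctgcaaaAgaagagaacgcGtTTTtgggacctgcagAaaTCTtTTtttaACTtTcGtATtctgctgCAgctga
Defa22: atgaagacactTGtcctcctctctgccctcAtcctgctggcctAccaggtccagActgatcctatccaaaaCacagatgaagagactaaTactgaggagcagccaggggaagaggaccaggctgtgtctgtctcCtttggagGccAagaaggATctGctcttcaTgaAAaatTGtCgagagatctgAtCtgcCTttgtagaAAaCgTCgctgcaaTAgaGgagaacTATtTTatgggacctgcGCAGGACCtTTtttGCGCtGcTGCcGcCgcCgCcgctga
*Defa30* (ENSMUSG00000074444, chr8:21134642-21135598) differed from *Defa24* at 4 bases. *Defa17* (ENSMUSG00000060208, chr8:21655780-21656735) differed at 12 bases. *Defa5* (ENSMUSG00000074439, chr8:21297439-21298375) and *Defa22* (ENSMUSG00000074443, chr8:21162277-21163249) differed at 47 and 58 bases, and most of these lie in the second part of the sequence, which holds the region of the mature peptide (37 and 50 bases, against 10 and 8 in the first part).

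Whether a read of 150 bases can be assigned to one copy differed between the genes. For *Defa24* and *Defa30*, 100% of the stretches of 150 bases in their transcripts occur in the transcripts of no other gene, and for *Defa22* it was 89.3%. For *Defa5* it was 30.8%, with 69.2% shared with *Defa34*. For *Defa17* it was 11.3%, with 88.7% shared with *Defa3*. The values of *Defa5* and *Defa17* are therefore uncertain as single genes, because how fragments that fit 2 genes were counted is not given in the sources used here. *Lyz1*, *Mmp7*, *Ang4*, *Itln1* and *Pla2g2a* each had 100% of their stretches to themselves. *Mmp7* and *Pla2g2a* each overlap a gene of the other strand, *AV064505* (mean FPKM 0.255 in crypts) and *Pla2g5* (7.16). The use of strand in counting is not given either, so that fragments of these pairs cannot be told apart.

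Promoter sequences, from RefSeq on GRCm38.p6, were found for 6 of the 10 genes (*Lyz1*, *Mmp7*, *Ang4*, *Itln1*, *Defa22* and *Defa30*). The 250 bases before the start sites of *Defa22* and *Defa30* are shown because these are the 2 alpha-defensins of the set with an entry, their levels were highest in the same crypt library, and both stretches hold the letters ATCAAAG, a form of the motif that TCF factors recognise. Capitals mark the motif, which was searched on both strands.
Defa22: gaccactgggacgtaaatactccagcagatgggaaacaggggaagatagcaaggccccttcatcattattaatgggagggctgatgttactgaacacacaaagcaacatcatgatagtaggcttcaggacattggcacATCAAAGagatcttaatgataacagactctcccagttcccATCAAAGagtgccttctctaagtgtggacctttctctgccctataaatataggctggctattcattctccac
Defa30: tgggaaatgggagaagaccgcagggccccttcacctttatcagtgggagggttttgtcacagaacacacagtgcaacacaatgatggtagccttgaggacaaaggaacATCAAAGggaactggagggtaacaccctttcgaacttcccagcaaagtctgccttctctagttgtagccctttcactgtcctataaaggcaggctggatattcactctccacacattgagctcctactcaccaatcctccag
The *Defa22* stretch lies at chr8:21162027-21162276 and holds the motif 112 and 72 bases before the start, and the *Defa30* stretch at chr8:21134400-21134649 holds it 142 bases before. In windows of 300 bases, from 250 before to 50 after the start, the motif was in 3 of the 6 promoters, those of *Defa22*, *Defa30* and *Mmp7*. In *Mmp7* it lies 4 bases after the first of the 2 listed start sites. Of 32851 promoters of the same length, 3.73% hold the motif at least once. All 12 promoters of the Defa cluster in the table hold it, and these are copies of related sequence and not independent cases. A match of letters is a description of the sequence and does not show binding.

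In crypts, all 10 genes had a lower mean log2 level in *Ctnnb1Δi.enh* than in wild-type libraries, where 47.2% of all tested genes did. After rescaling to the same total, quantile normalization or voom it was 9 of 10, with *Defa5* or *Ang4* turning. The groups did not overlap for 2 of the 10, *Lyz1* and *Mmp7*. Of all tested genes, 5.15% were lower and 6.79% higher without overlap. *Ctnnb1* itself, the gene whose enhancer was deleted, was at 121, 134 and 123 FPKM in wild-type and 102, 104 and 105 in *Ctnnb1Δi.enh* crypts, with no overlap (limma: log2 fold change -0.28 ± 0.118, adjusted p = 0.849). In tumors it was at 299, 363 and 358 FPKM in *ApcMin/+* and 279, 248 and 250.2 in *Ctnnb1Δi.enh;ApcMin/+* libraries, again with no overlap (limma: log2 fold change -0.39 ± 0.128, adjusted p = 0.303). Levels of the 10 genes ran over a wide range, from 77.7 FPKM of *Pla2g2a* to 32836 FPKM of *Defa24*. In the means of wild-type crypts, *Defa24* ranked 3, *Lyz1* 5, *Defa30* 8, *Defa22* 13 and *Itln1* 18 among all genes, so that this set holds some of the most abundant transcripts of the crypt. The order of *Defa24* and *Lyz1* rests on wild-type replicate 3, since in replicates 1 and 2 *Defa24* was at 7359 and 10163 FPKM and *Lyz1* at 7348 and 10821 FPKM. Of all fragments on genes, the 10 genes took 2.07%, 2.72% and 4.19% in wild-type crypts and 2.10%, 1.90% and 1.91% in *Ctnnb1Δi.enh* crypts.

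**Figure D1:**
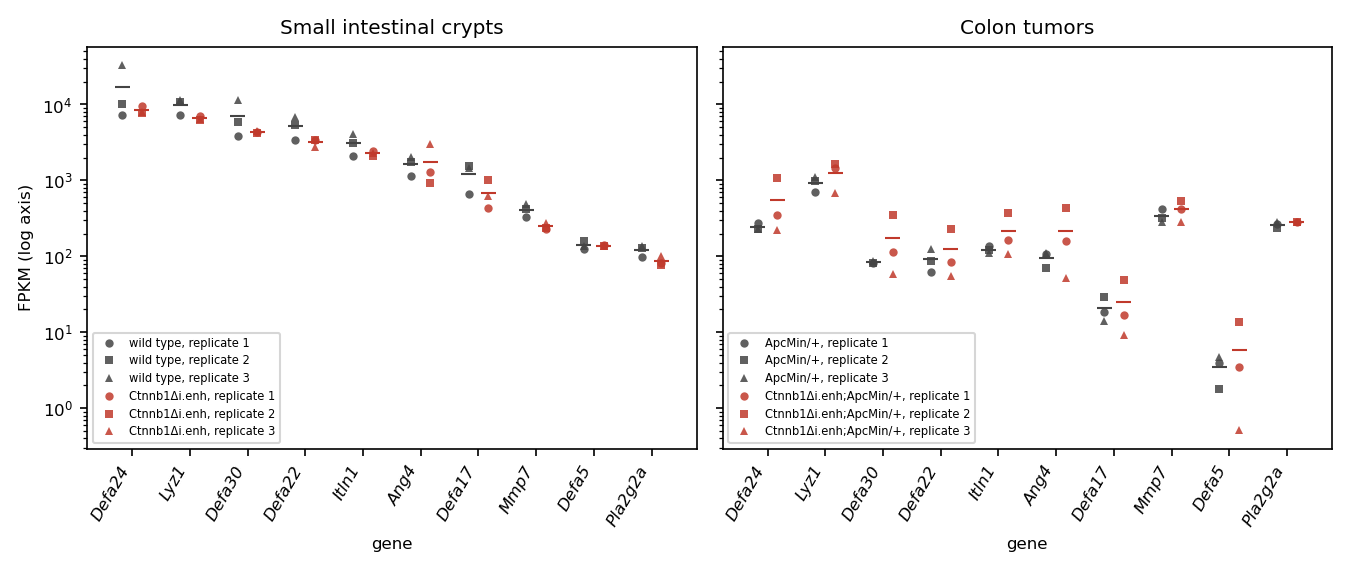
FPKM (log axis) of the 10 genes in each library of crypts (left) and colon tumors (right), with genes ordered by their mean in wild-type crypts; symbols mark replicates and horizontal lines group means. Wild-type replicate 3 reaches 32836 FPKM for Defa24, and tumor replicate 2 of Ctnnb1Δi.enh;ApcMin/+ is the highest of the 6 tumor libraries for 9 of the 10 genes.

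*Lyz1* encodes the lysozyme of Paneth cells, which cleaves the peptidoglycan of bacterial walls (ENSMUSG00000069515, chr10:117287797-117292868, minus strand). It was at 7348, 10821 and 11466 FPKM in wild-type and at 7061, 6169 and 6499.7 FPKM in *Ctnnb1Δi.enh* crypts. The *Ctnnb1Δi.enh* libraries were all below the lowest wild-type library, replicate 1, by a small margin. The group means were 9878 ± 2215 and 6577 ± 451 (SD, n = 3 each), and the log2 fold change was -0.56 ± 0.328 (SE; limma adjusted p = 0.887). The exact permutation test gave p = 0.1, two-sided, the smallest that 3 libraries against 3 allow.

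*Mmp7* encodes matrilysin, the metalloprotease that cuts pro-alpha-defensins into their active form (ENSMUSG00000018623, chr9:7692090-7699585, plus strand). It was at 329, 426 and 484 FPKM in wild-type and at 228, 239 and 275 FPKM in *Ctnnb1Δi.enh* crypts. Every *Ctnnb1Δi.enh* library was below every wild-type library. The log2 fold change was -0.72 ± 0.190 (SE; limma adjusted p = 0.757; exact permutation p = 0.1), the second most negative of the 10 genes after that of *Defa17*.

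The alpha-defensins are small cationic peptides with 3 disulfide bonds that permeabilise bacterial membranes. *Defa24* was at 7359, 10163 and 32836 FPKM in wild-type and 9438, 7629 and 8045 in *Ctnnb1Δi.enh* crypts. Wild-type replicate 3 stood far above the other 5 libraries, and the other wild-type libraries spanned the range of the *Ctnnb1Δi.enh* libraries. *Defa30* was at 3898, 5909 and 11295 FPKM in wild-type and 4315, 4196 and 4482 in *Ctnnb1Δi.enh* crypts. The pattern was that of *Defa24*, with wild-type replicate 1 below all *Ctnnb1Δi.enh* libraries. *Defa22* was at 3361, 5302 and 6867 FPKM in wild-type and 3387, 3394 and 2792 in *Ctnnb1Δi.enh* crypts. Here wild-type replicate 1 lay among the *Ctnnb1Δi.enh* libraries and the other two lay above them. *Defa17* was at 671, 1561 and 1454 FPKM in wild-type and 433, 1011 and 615 in *Ctnnb1Δi.enh* crypts, and the groups overlapped.

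*Defa5*, the least abundant of the 5, was at 125, 161 and 138 FPKM in wild-type and 140.0, 136 and 139 in *Ctnnb1Δi.enh* crypts. It did not share the excess of wild-type replicate 3. Log2 fold changes were -0.69 for *Defa24* (standard error 0.589), -0.56 for *Defa30* (0.423), -0.64 for *Defa22* (0.336), -0.83 for *Defa17* (0.429) and -0.024 for *Defa5* (0.139), with adjusted p between 0.860 and 0.993 from limma. Without wild-type replicate 3 they were -0.053 for *Defa24*, -0.15 for *Defa30*, -0.41 for *Defa22*, -0.66 for *Defa17* and -0.037 for *Defa5*, so that little of the difference in *Defa24* was left. Without wild-type replicate 1 they were -1.13, -0.92, -0.92, -1.22 and -0.11 in the same order.

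The other 3 genes differed in how closely they followed this pattern. *Itln1* encodes intelectin, a lectin that binds microbial glycans (ENSMUSG00000038209, chr1:171518122-171535294, minus strand). It was at 2118, 3092 and 4039 FPKM in wild-type and 2436, 2107 and 2326 in *Ctnnb1Δi.enh* crypts. The groups overlapped through wild-type replicate 1 (limma: log2 fold change -0.38 ± 0.297, adjusted p = 0.900). *Ang4*, an angiogenin of the ribonuclease family with microbicidal activity (ENSMUSG00000060615, chr14:51763878-51773590, minus strand), was at 1155, 1754 and 2031 FPKM in wild-type and 1310.1, 921 and 3014 in *Ctnnb1Δi.enh* crypts. Its highest library was *Ctnnb1Δi.enh* replicate 3 (limma: log2 fold change -0.060 ± 0.464, adjusted p = 0.995), and its sign turned with quantile normalization (0.24) and with the library left out (-0.54 to 0.31). *Pla2g2a* encodes a secreted phospholipase that attacks bacterial membranes (ENSMUSG00000058908, chr4:138831857-138835186, plus strand). The allele of C57BL/6 mice carries a frameshift, and the table lists the gene as a polymorphic pseudogene. It was at 99.5, 128 and 136 FPKM in wild-type and 80.6, 77.7 and 103 in *Ctnnb1Δi.enh* crypts. *Ctnnb1Δi.enh* replicate 3 lay just above the lowest wild-type library (limma: log2 fold change -0.47 ± 0.178, adjusted p = 0.823).

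No gene of the 14176 tested passed adjustment in crypts (0%, limma with a Benjamini-Hochberg adjusted p under 0.05 on log2(FPKM + 0.5); 829 genes had an unadjusted p under 0.05, and voom on the recovered fragments also called 0). All 10 genes passed the filter of a mean FPKM of 0.5. All 10 had a log2 fold change below 0, where 47.2% of all tested genes did, and their median was -0.56 beside 0.014 over all tested genes. These genes were chosen as products of Paneth cells, so they cannot be counted as independent of each other. Which cells their RNA came from was not tested. Groups did not overlap, with lower values in *Ctnnb1Δi.enh* crypts, for 2 of 10, where 5.15% of all tested genes did so, and an unadjusted p under 0.05 with lower values was found for 2 of 10, *Mmp7* and *Pla2g2a*, where the share was 2.36%. None was higher without overlap (6.79% of all tested genes) or higher at an unadjusted p under 0.05 (3.48%). Among the fits that each left out a library, the count with an unadjusted p under 0.05 ran from 1 to 4, where 458 to 1341 genes in all had one. The 4 were found without wild-type replicate 1, the fit with 1341 genes of 14171, where all 10 were lower and the median was -0.82. Voom gave 5, with 742 genes in all. Without wild-type replicate 3, singled out after its values had been seen, 9 of 10 were lower, where 50% of all tested genes were, and 2 were lower without overlap, where 11.3% of all tested genes were. The median was then -0.27, and limma called 3 genes in all at an adjusted p under 0.05, none of them of this set. Outside the alpha-defensins, the log2 fold changes without that library were -0.44 for *Lyz1*, -0.60 for *Mmp7*, -0.16 for *Itln1*, 0.11 for *Ang4* and -0.38 for *Pla2g2a*. Without wild-type replicate 1 they were -0.76, -0.88, -0.63, -0.30 and -0.61 in the same order.

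**Figure D2:**
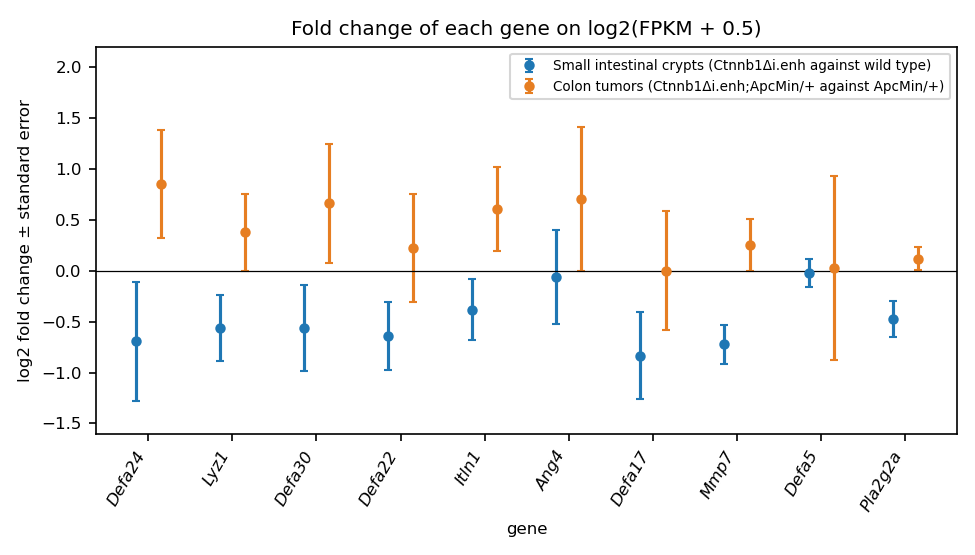
Log2 fold change with its standard error (limma on log2(FPKM + 0.5), 3 libraries against 3) of each gene in crypts (blue, Ctnnb1Δi.enh against wild type) and in colon tumors (orange, Ctnnb1Δi.enh;ApcMin/+ against ApcMin/+). Points lie below 0 for all 10 genes in crypts and above 0 for all 10 in tumors, where 1 or 2 turn with rescaling or quantile normalization, with no adjusted p under 0.05 in either tissue.

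The spread among wild-type crypts was largely shared between these genes. Wild-type replicate 1 was the lowest of the 3 wild-type libraries for 10 of 10 genes, and wild-type replicate 3 was the highest of all 6 for 7 of 10. Over the 28 protein-coding genes of the Defa cluster, wild-type replicate 3 was highest for 25. Copies among them that share most of their sequence are not independent cases. How often these libraries were lowest or highest over all tested genes was not counted. The ratio of the highest to the lowest wild-type library was 4.46 for *Defa24*, 2.90 for *Defa30* and 1.56 for *Lyz1*, while among *Ctnnb1Δi.enh* libraries it was 1.24, 1.07 and 1.14. The *Ctnnb1Δi.enh* libraries were not closer together for every gene, as the ratio was 1.76 in wild type and 3.27 in *Ctnnb1Δi.enh* for *Ang4*, and 2.32 and 2.33 for *Defa17*. A wide spread was also seen in copies that share most of their sequence with another, for which single-gene values are uncertain. *Gm7861*, which shares 95.0% of its stretches of 150 bases with *Gm7849*, was at 19.0, 31.1 and 934 FPKM in wild-type and 49.0, 23.2 and 33.3 in *Ctnnb1Δi.enh* crypts. *Defa32*, with 0.362% of its stretches found in no other gene and 69.9% shared with *Defa20*, was at 293, 2336 and 5215 FPKM in wild-type and 633, 585 and 241 in *Ctnnb1Δi.enh* crypts. *Gm7861* was singled out after its values had been seen.

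Genes of other cells also differed in that library. *Fabp6*, which encodes the bile acid binding protein of ileal enterocytes, was at 135, 991 and 2619 FPKM in wild-type and 678, 617 and 661 in *Ctnnb1Δi.enh* crypts. The 10 enterocyte markers summed to 3974, 6497 and 12970 FPKM in wild-type and 8591, 6584 and 9956 in *Ctnnb1Δi.enh* crypts, with *Fabp2* as the most abundant and none at 0. The 5 stem cell markers summed to 1109, 907 and 627 FPKM in wild-type and 1100.0, 923 and 841 in *Ctnnb1Δi.enh* crypts, with *Olfm4* as the most abundant. The part of these differences in the values of the antimicrobial genes was not tested.

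The other 34 Defa genes include pseudogenes, whose names start with Defa-ps. Of the 34, 27 passed the filter in crypts. In *Ctnnb1Δi.enh* crypts, 26 of these were lower and 1, *Defa27* (log2 fold change 0.017), higher. The median was -0.78, and -0.28 without wild-type replicate 3. An unadjusted p under 0.05 was found for 4, all lower (*Defa28*, *Defa2*, *Defa35* and *Defa-ps7*), and the groups of these 4 did not overlap. Of all tested genes, 2.36% were lower at an unadjusted p under 0.05 and 5.15% lower without overlap. *Defa28* had the most negative fold change (-2.14) at a mean FPKM of 3.21. *Defa2*, at 561, 950 and 2248 FPKM in wild-type and 236, 398 and 405 in *Ctnnb1Δi.enh* crypts, had a log2 fold change of -1.66 (limma adjusted p = 0.797). Since 0% of its stretches of 150 bases are found in no other gene, with 70.4% shared with *Defa33*, this value cannot be read as that of a single gene. The most abundant was *Defa21*, whose promoter holds the motif at the same distances as that of *Defa22* and which was at 3863, 6809 and 8960.3 FPKM in wild-type and 4081, 3775 and 3376 in *Ctnnb1Δi.enh* crypts. It was followed by *Defa32* and by *Defa20*, which also has 0.362% of its stretches to itself, at 801, 1250.2 and 4831 FPKM in wild-type and 832, 857 and 636 in *Ctnnb1Δi.enh* crypts. Summed to a single feature, all 39 Defa genes, pseudogenes included, gave a log2 fold change of -0.77 ± 0.432 (SE, adjusted p = 0.880 from limma). The sum does not depend on which copy a counted fragment was given to. It cannot restore fragments left out of counting or correct fragments counted for 2 genes. The summed level, over the summed length, was 727, 1171 and 2555 FPKM in wild-type and 811, 758 and 711 in *Ctnnb1Δi.enh* crypts. Wild-type replicate 3 was thus far above the rest, and the sum was not fitted without it. The median over the Defa genes tested one by one was -0.73, and -0.23 without wild-type replicate 3. Their fragments made up 1.04%, 1.49% and 3.33% of the wild-type and 1.12%, 1.07% and 0.909% of the *Ctnnb1Δi.enh* libraries.

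**Figure D3:**
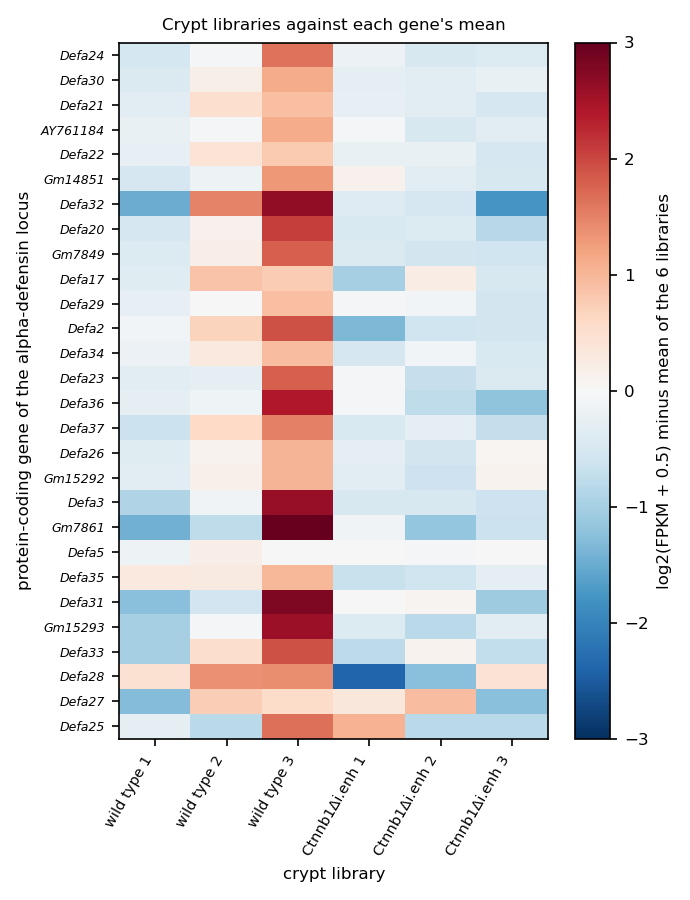
Log2(FPKM + 0.5) of the 28 protein-coding genes of the Defa cluster in the 6 crypt libraries, as the difference from each gene's mean, with genes ordered by mean FPKM and colors limited at 3 (1 value lies beyond). Wild-type replicate 3 is the highest library for 25 of the 28 genes, and Defa5 is nearly level.

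Genes of Paneth cell fate and of the niche these cells form were described in the same way. Of 18 genes, 16 passed the filter, 12 were lower and 4 higher in *Ctnnb1Δi.enh* crypts, and the median log2 fold change was -0.17. Groups did not overlap for 3, all lower (*Ctnnb1*, the gene whose enhancer was deleted, *Mptx2* and *Wnt3*). Of all tested genes, 5.15% were lower and 6.79% higher without overlap, and 2.36% were lower at an unadjusted p under 0.05. The most abundant was *Mptx2*, a pentraxin of Paneth cells, at 789, 864 and 1338 FPKM in wild-type and 611, 641 and 787 in *Ctnnb1Δi.enh* crypts. Its groups did not overlap, although the nearest libraries were close, at 787 and 789 FPKM (log2 fold change -0.52, adjusted p = 0.860 from limma). *Wnt3*, a ligand that Paneth cells supply to stem cells, was the gene of this list with an unadjusted p under 0.05 (limma: log2 fold change -0.49 ± 0.131, adjusted p = 0.757). It was at 5.12, 6.44 and 6.55 FPKM in wild-type and 3.97, 4.15 and 4.24 in *Ctnnb1Δi.enh* crypts, also without overlap. *Dll4* had the most negative (-0.52) and the frizzled receptor gene *Fzd5* the most positive fold change (0.18).

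Antimicrobial genes outside the set were split in direction. Of 18, 12 passed the filter, 7 were lower and 5 higher, with a median of -0.23, and 1, *S100a8*, was listed at 0 in all crypt libraries. *Reg3b* was the most abundant (mean FPKM 2418), *Reg3g* had the most negative fold change (-0.52) and *Retnlb* the most positive (1.04), from 23.1 FPKM in *Ctnnb1Δi.enh* replicate 3, the library that was also highest for *Ang4*. *Lyz2*, the lysozyme gene of macrophages, was between 6.28 and 11.4 FPKM in crypts. Of the angiogenin and ribonuclease family, 6 of 7 genes were in the table and 3 passed, all lower (median -0.28), while *Ang5* and *Ang6* were listed at 0. The most abundant, *Rnase4*, was at 72.1, 99.3 and 90.7 FPKM in wild-type and 62.7, 61.3 and 67.4 in *Ctnnb1Δi.enh* crypts (log2 fold change -0.44, adjusted p = 0.806 from limma), with no overlap and an unadjusted p under 0.05, and *Ang* had the smallest difference (-0.18).

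Markers of other cell types in crypts were counted on the same scale, where 2.36% of all tested genes were lower and 3.48% higher at an unadjusted p under 0.05. Goblet cell markers were lower for 7 of 8 genes (median -0.29), with *Tff3* the most abundant, *Agr2* at -0.43 and *Muc2* at 0.0034. Enterocyte markers were higher for 8 of 10 (median 0.37), from *Fabp6* at -0.12 to *Fabp1* at 0.75. The *Fabp6* value rests on wild-type libraries from 135 to 2619 FPKM, the highest of them replicate 3. Enteroendocrine markers were lower for 6 of 6 (median -0.37), and *Chga*, *Tac1* and *Chgb*, the most abundant, had an unadjusted p under 0.05. *Chga*, a granule protein of these hormone cells, was at 43.7, 34.5 and 58.5 FPKM in wild-type and 22.7, 34.4 and 33.7 in *Ctnnb1Δi.enh* crypts, and *Sct* had the smallest difference (-0.12). Stem cell markers were split 2 lower and 3 higher (median 0.0047), from *Lgr5* at -0.40 to *Olfm4* at 0.18. Tuft cell markers had a median of -0.14, with *Avil* the most abundant, *Trpm5* at -0.27 and *Pou2f3* at 0.20. Colonocyte markers, of which 3 of 5 passed, had a median of 0.46, with *Krt20*, the most abundant, at -0.084 and *Car4* at 0.92, and *Car4* and *Slc26a3* had an unadjusted p under 0.05 in the higher direction. Leukocyte markers, of which 6 of 7 passed, had a median of -0.19, with *Cd8a* the most abundant, *Csf1r* at -0.53 and *Cd3e* at 0.099. Stromal markers were low, with 2 of 7 passing (*Dcn*, the most abundant at a mean of 2.74 FPKM, at -0.59 and *Col3a1*, with an unadjusted p under 0.05, at -0.54). Of 3 endothelial markers, *Pecam1* passed (-0.11). Of 7 pancreatic acinar markers, 6 passed with a median of 0.12, from *Prss2* at -0.044 to *Ctrb1* at 0.53, and *Cela1* was the most abundant. Without wild-type replicate 3 the median was 0.83 for enterocyte, -0.15 for goblet, -0.21 for stem cell, -0.078 for tuft cell and -0.48 for acinar markers, and -0.36 for the antimicrobial genes outside the set.

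The genes whose levels followed the set most closely over the 6 crypt libraries, by Pearson correlation with the mean log2 level of the 10 genes, were *Ext1* (0.997), *Plpp5* (0.990), *Gm16011* (0.990), *B4galnt2* (0.990) and *Fkbp9* (0.989) among 12252 genes. The correlation describes 6 libraries, which share their genotype groups, and was chosen as the highest of all. *Ext1* was at 4.48, 5.33 and 5.80 FPKM in wild-type and 4.46, 4.41 and 4.72 in *Ctnnb1Δi.enh* crypts, so that wild-type replicate 3 was its highest library.

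In colon tumors, how far levels lay from those of crypts differed sharply from gene to gene. The tissues were normalized separately. The tissue, the part of the intestine and the genotype all differ between them, and the age of the mice may differ too. The levels are therefore set side by side with no test. For 8 of the 10 genes, every one of the 6 crypt libraries was above every one of the 6 tumor libraries, where 10.1% of the 17549 genes that passed the expression filter in at least 1 tissue showed this. *Mmp7* overlapped, at 413 ± 78.4 FPKM in wild-type crypts and 341 ± 66.8 in *ApcMin/+* tumors (SD, n = 3 each). *Pla2g2a* was the exception in the other direction, at 121 ± 19.1 FPKM in wild-type crypts and 262 ± 26.6 in *ApcMin/+* tumors (SD, n = 3 each), with all tumor libraries above all crypt libraries, as for 44.1% of the same genes. Together the 10 genes took 0.202%, 0.220% and 0.240% of the fragments in the *ApcMin/+* libraries and 0.308%, 0.437% and 0.168% in the *Ctnnb1Δi.enh;ApcMin/+* libraries, which spread more widely. All 6 shares were below those of the crypts.

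**Figure D4:**
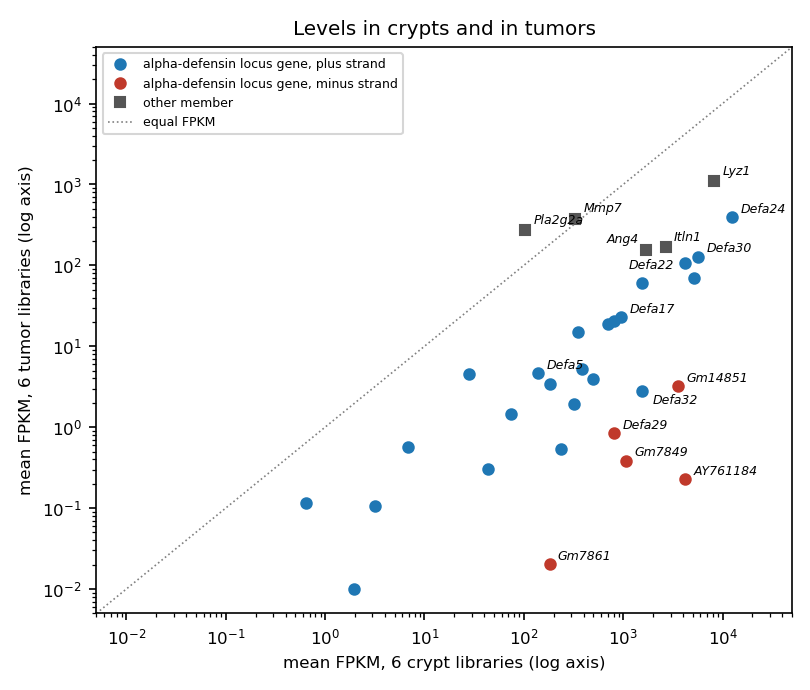
Mean FPKM over 6 crypt libraries (horizontal) and over 6 tumor libraries (vertical), both on log axes, for the 28 protein-coding genes of the Defa cluster (circles, colored by strand) and the 5 other genes of the set (squares); the dotted line marks equal FPKM, and a gene at 0 in tumors is drawn at 0.01. Lyz1 and Defa24 have the highest tumor means of the genes drawn (1094 and 395 FPKM), both below the line. Pla2g2a and Mmp7 lie above the line, and the 5 minus-strand genes lie lowest for their crypt level, apart from the gene at 0.

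*Lyz1* was the most abundant of the set in tumors, at 702, 971 and 1095 FPKM in *ApcMin/+* and 1456, 1665 and 677 in *Ctnnb1Δi.enh;ApcMin/+* libraries. The groups overlapped through replicate 3 of *Ctnnb1Δi.enh;ApcMin/+*, which was lowest of all (limma: log2 fold change 0.38 ± 0.378, adjusted p = 0.651). *Lyz2*, the macrophage lysozyme gene, was also well expressed in tumors, between 247 and 479 FPKM. *Mmp7* was at 415, 322 and 286 FPKM in *ApcMin/+* and 422, 533 and 287 in *Ctnnb1Δi.enh;ApcMin/+* tumors, with overlapping groups (limma: log2 fold change 0.25 ± 0.258, adjusted p = 0.658).

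*Pla2g2a* was nearly constant, at 265, 233 and 286 FPKM in *ApcMin/+* and 282, 286 and 282 in *Ctnnb1Δi.enh;ApcMin/+* tumors. It varied least of the 10 genes (limma: log2 fold change 0.12 ± 0.116, adjusted p = 0.640). *Pla2g5* on the opposite strand had a mean FPKM of 3.60 in tumors. *Itln1* was at 136, 121 and 112 FPKM in *ApcMin/+* and 163, 368 and 109 in *Ctnnb1Δi.enh;ApcMin/+* tumors, and *Ang4* at 106, 70.8 and 111 and at 159, 438 and 52.2. In both genes replicate 2 of *Ctnnb1Δi.enh;ApcMin/+* stood above the rest and replicate 3 was the lowest of the 6 (limma: log2 fold changes 0.61 ± 0.413 for *Itln1*, adjusted p = 0.507, and 0.70 ± 0.707 for *Ang4*, adjusted p = 0.654).

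The alpha-defensins were detected in tumors at lower levels, with the same library highest for each. *Defa24* was at 272, 227 and 232 FPKM in *ApcMin/+* and 355, 1062 and 225 in *Ctnnb1Δi.enh;ApcMin/+* tumors. *Defa30* was at 80.7, 81.6 and 88.2 FPKM and at 114, 348 and 58.8, and *Defa22* at 61.6, 87.9 and 124 and at 85.4, 230.5 and 54.5. In all 3 the *ApcMin/+* libraries lay between the extremes of the *Ctnnb1Δi.enh;ApcMin/+* libraries. *Defa17* was between 9.21 and 49.5 FPKM, and *Defa5* between 0.512 and 13.6 FPKM. *Defa5*, with between 3 and 82 fragments in a library, was the member closest to the limit of detection. Log2 fold changes were 0.85 for *Defa24* (standard error 0.528), 0.67 for *Defa30* (0.584), 0.22 for *Defa22* (0.530), 0.0021 for *Defa17* (0.587) and 0.027 for *Defa5* (0.902), with adjusted p between 0.473 and 0.999 from limma. The sign of both *Defa17* and *Defa5* turned with a pseudocount of 0.1, with rescaling and with voom.

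No gene of the 16743 tested passed adjustment in tumors (0%, limma; 2421 genes had an unadjusted p under 0.05, and voom on the recovered fragments also called 0). All 10 genes had a log2 fold change above 0 (2 turned below 0 with a pseudocount of 0.1, with rescaling to the same total, with quantile normalization and with voom), where 51.3% of all tested genes did, with a median of 0.32 beside 0.0075 over all tested genes. Their groups did not overlap for 0 of 10, where 11.4% of all tested genes were higher without overlap and 10.6% lower, and 0 of 10 had an unadjusted p under 0.05, where 8.46% were higher and 6% lower. For 5 of the 10 genes the direction turned when 1 library was left out. Replicate 2 of *Ctnnb1Δi.enh;ApcMin/+* was the highest of the 6 for 9 of 10 genes, and replicate 3 of the same genotype the lowest for 8. The same was not counted over all tested genes. Without replicate 2, singled out after its values had been seen, 5 of 10 were higher and the median was 0.0094. The log2 fold change was then 0.22 for *Defa24*, 0.13 for *Lyz1*, 0.12 for *Itln1*, 0.11 for *Pla2g2a* and 0.049 for *Mmp7*, and below 0 for *Defa30* (-0.030), *Ang4* (-0.050), *Defa22* (-0.36), *Defa17* (-0.65) and *Defa5* (-0.91). Without replicate 3 of that genotype the median was 0.88 and 5 of 10 had an unadjusted p under 0.05, where 1762 of 16776 genes did, 1075 of them higher, and without *ApcMin/+* replicate 3 it was 0.49. All 39 Defa genes summed gave a log2 fold change of 0.54 ± 0.522 (SE, adjusted p = 0.640 from limma). The summed level, over the summed length, was 17.5, 19.6 and 20.1 FPKM in *ApcMin/+* and 23.2, 67.7 and 13.7 in *Ctnnb1Δi.enh;ApcMin/+* tumors. Replicate 2 of *Ctnnb1Δi.enh;ApcMin/+* was thus far above the rest and replicate 3 the lowest, and the sum was not fitted without a library. The median over the Defa genes tested one by one was 0.50, and -0.18 without replicate 2 of *Ctnnb1Δi.enh;ApcMin/+*.

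The genes of the Defa cluster differed in how much of their level was seen in tumors. Its 5 minus-strand genes (*AY761184*, *Gm14851*, *Gm7849*, *Gm7861* and *Defa29*, chosen after their values had been seen) have a longer coding sequence, 351 bases, and between 74.5% and 75.2% identity to *Defa24* over the aligned bases. *AY761184* was at 3324, 3793 and 8418 FPKM in wild-type crypts and at 0.491, 0.120 and 0 FPKM in *ApcMin/+* tumors, with at most 5 fragments in any tumor library. *Gm14851*, at 2257, 2883 and 7891 FPKM in wild-type crypts, was at 1.06, 1.55 and 1.71 FPKM in *ApcMin/+* tumors. In *Ctnnb1Δi.enh;ApcMin/+* tumors it was at 2.48, 10.3 and 2.19 FPKM, without overlap (limma: log2 fold change 1.20 ± 0.525, adjusted p = 0.360). The plus-strand gene *Defa22* had nearly the same mean in wild-type crypts, 5177 FPKM against 5178 FPKM of *AY761184*, and was between 54.5 and 230.5 FPKM in tumors. All 6 crypt libraries were above all 6 tumor libraries for 5 of 5 minus-strand and 20 of 23 plus-strand genes. The share was 10.1% over the genes that passed the filter in at least 1 tissue. In tumors, 2 of 5 and 19 of 23 passed the filter. Among plus-strand genes, *Defa32* was also low in tumors, between 0.453 and 11.1 FPKM. Of the other 34 Defa genes, 14 passed the filter in tumors, 13 higher, up to *Defa32* at 1.07, and 1 lower (*Defa21* at -0.033). The median was 0.56, and -0.11 without replicate 2 of *Ctnnb1Δi.enh;ApcMin/+*. *Defa32* was at 11.1 FPKM in that library and at most at 2.19 FPKM in the others. Of the 14, 1 was higher at an unadjusted p under 0.05 (*Defa33*, at most 1.05 FPKM), where 8.46% of all tested genes were. Another 14 were listed at 0 in all tumor libraries, and all of these but *Defa27* are annotated as pseudogenes. Of these pseudogenes, 6 were also at 0 in all crypt libraries.

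Other lists gave a different picture in tumors. Of all tested genes in tumors, 11.4% were higher and 10.6% lower without overlap. At an unadjusted p under 0.05 from limma, 8.46% were higher and 6% lower. All 8 goblet cell markers were higher in *Ctnnb1Δi.enh;ApcMin/+* tumors without overlap, each with an unadjusted p under 0.05 (median log2 fold change 1.01), from *Klk1* at 0.61 to *Muc2* at 1.31. *Muc2*, the main mucin of the colon, was at 151, 123 and 114 FPKM in *ApcMin/+* and 259, 419 and 295 in *Ctnnb1Δi.enh;ApcMin/+* tumors (adjusted p = 0.269 from limma). *Spink4* was the most abundant, and the list summed to 1494, 1539 and 1572 FPKM and to 2857, 3362 and 3032. The 10 antimicrobial genes did not share this separation, and their groups overlapped in each case. Of the Paneth fate and niche genes, 17 of 18 passed, 9 lower and 8 higher (median -0.073), from *Mptx2* at -1.98 to *Spdef* at 1.06. *Mptx2* was at 99.9, 51.2 and 18.4 FPKM in *ApcMin/+* and 9.31, 5.26 and 27.5 in *Ctnnb1Δi.enh;ApcMin/+* tumors (adjusted p = 0.327 from limma), with overlapping groups. *Xbp1*, *Fzd5*, *Atoh1* and *Spdef* were higher, and *Mptx2* and *Ctnnb1*, the most abundant of the list, lower, each with an unadjusted p under 0.05.

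Among other antimicrobial genes, 16 of 18 passed, 10 higher and 6 lower (median 0.41), from *S100a9* at -1.01 to *Retnlb* at 1.13, and *Lypd8* was the most abundant (mean FPKM 1799.7). An unadjusted p under 0.05 was found for *S100a9* and *S100a8* (lower) and for *Duoxa2*, *Lypd8* and *Retnlb* (higher). For this and the following lists, the share over all tested genes was 6% lower and 8.46% higher. Without overlap, 11.4% of all tested genes were higher. Of the angiogenin family, 3 passed with a median of -0.14, from *Rnase1* at -0.44 to *Rnase4*, the most abundant, at 0.034, and *Ang2*, *Ang5* and *Ang6* were listed at 0. Enterocyte markers were low, with 4 of 10 passing (median 0.45, from *Slc5a1* at -0.11 to *Fabp2* at 0.82) and *Vil1* the most abundant and the one with an unadjusted p under 0.05. Colonocyte markers were higher for 5 of 5 (median 0.60), from *Slc26a3* at 0.24 to *Car1* at 1.03, the most abundant, and *Car1* and *Krt20* had an unadjusted p under 0.05. Stem cell markers were lower for 4 of 4 (median -0.085), from *Lgr5* at -0.50 to *Ascl2* at -0.034, and *Slc12a2* was the most abundant. Enteroendocrine markers were higher for 5 of 5 (median 0.30), from *Gcg* at 0.0091 to *Sct* at 0.97, with *Chgb* the most abundant. Of 2 tuft cell markers, *Avil* was at -0.38 and *Dclk1* at 0.18 (median -0.10). Leukocyte markers had a median of 0.081, from *Ptprc* at -0.11 to *Cd79a* at 0.83, with *Cd68* the most abundant. Stromal markers were higher for 7 of 7 (median 0.40), from *Myh11* at 0.15 to *Col1a2* at 0.67, with *Col1a1* the most abundant, and *Acta2*, *Pdgfra*, *Dcn*, *Col3a1* and *Col1a1* had an unadjusted p under 0.05. Endothelial markers had a median of 0.044, from *Kdr* at -0.088 to *Pecam1* at 0.47, with *Cdh5* the most abundant, and *Pecam1* was higher with no overlap and an unadjusted p under 0.05. Of the pancreatic acinar markers, *Cela1* passed (0.023), and *Cpa1* and *Amy2a5* were listed at 0. Without replicate 2 of *Ctnnb1Δi.enh;ApcMin/+* the median was 0.93 for goblet, -0.045 for leukocyte, -0.031 for stem cell, -0.038 for tuft cell, 0.025 for endothelial and 0.14 for acinar markers, -0.37 for the angiogenin family, -0.023 for the Paneth fate and niche genes and -0.11 for the other Defa genes. The part of these cells in the values of the antimicrobial genes was not tested.

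In tumors, the genes most like the set over the 6 libraries were *Mtm1* (0.996), *Dyrk2* (0.989), *Cftr* (0.988), *L1cam* (0.981) and *Papd5* (0.981), among 14529 genes. *Cftr*, the chloride channel of secretory epithelium, was at 4.65, 4.29 and 4.36 FPKM in *ApcMin/+* and 4.96, 6.64 and 3.65 in *Ctnnb1Δi.enh;ApcMin/+* tumors. It was highest in replicate 2 and lowest in replicate 3 of *Ctnnb1Δi.enh;ApcMin/+*, as was *Mtm1*. These genes were again chosen as the highest of all correlations.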

How the data were processed

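Small intestinal crypts and colon tumors were profiled in 12 libraries, 3 per group. Per the study's methods, 150-base paired reads were mapped by Hisat2, and featureCounts gave the fragments per gene. The authors deposited FPKM per gene and library, in a table for each tissue. The submitters' processing notes also name Cufflinks 2.2.1, cutadapt and DESeq2. FPKM multiplied by the gene length the authors deposited with them gave whole steps of 1 size per library, within 0.05, for 100% of the non-zero values, which gave the fragments of each gene and library. Within each table, genes averaging 0.5 FPKM or more went into limma 3.58.1 (R 4.3.3), fitted to log2(FPKM + 0.5) under a variance trend, without covariates, and with Benjamini-Hochberg adjustment; this scale understates changes of low genes. Single genes were also tested by exact two-sided permutation. The fit was tested on simulated data. Coding sequences and transcripts came from GENCODE M21, aligned with Biopython 1.88, and promoters from RefSeq. The members and gene lists were chosen with earlier results of these data known. Named were all members; of each list the tested genes with the largest and smallest log2 fold change and the most abundant gene, with genes behind counts of 5 or fewer; the 3 other Defa genes highest in crypts; and the 5 genes most like the set. Alternatives were other pseudocounts, filters, scalings and variance models, voom on fragments, a replicate block, leaving out each library and summing all Defa genes.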

Additional observations from a re-analysis of the deposited data

How the results depend on the processing

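Under the 17 alternatives to each log2 fold change of a gene of the set, 162 of 170 values in crypts and 151 of 170 in tumors kept their sign, and none passed adjustment (lowest adjusted p 0.422 and 0.429 from limma). The number of genes called in crypts was 0 throughout, but 3 without wild-type crypt replicate 3, and ran from 0 to 3 over the fits without a library. In tumors it was 0 but for 1 without a variance trend, and 0 in every fit without a library. The median of the set in crypts was -0.19 with quantile normalization and ran from -0.82 to -0.27 over the fits without a library. In tumors it was 0.095 with quantile normalization and ran from 0.0094 to 0.88 without a library. The cause of these differences was not tested. Of single genes, the sign turned for *Ang4* in crypts with quantile normalization (0.24) and over the fits without a library (-0.54 to 0.31), and for *Defa5* in crypts when rescaled to the same total (0.0011), with voom (0.00031) and without a library (-0.11 to 0.071). In tumors it turned for *Defa17* with a pseudocount of 0.1 (-0.0033), rescaled to the same total (-0.041), rescaled without the Paneth genes (-0.040), with quantile normalization (-0.032) and with voom (-0.061), and for *Defa5* under the same changes other than quantile normalization (-0.10, -0.0058, -0.0045 and -0.14). It turned for *Pla2g2a* with quantile normalization (-0.078). Without a library, the values in tumors ran from -0.65 to 0.53 for *Defa17*, -0.91 to 0.99 for *Defa5*, -0.36 to 0.68 for *Defa22*, -0.030 to 1.25 for *Defa30* and -0.050 to 1.48 for *Ang4*. Where no sign turned, values without a library ran from -1.13 to -0.053 for *Defa24*, -1.22 to -0.55 for *Defa17*, -0.92 to -0.41 for *Defa22*, -0.92 to -0.15 for *Defa30* and -0.63 to -0.16 for *Itln1* in crypts, and from 0.22 to 1.34 for *Defa24*, 0.12 to 0.997 for *Itln1*, 0.13 to 0.78 for *Lyz1*, 0.049 to 0.49 for *Mmp7* and 0.041 to 0.19 for *Pla2g2a* in tumors. *Pla2g2a* in tumors was 0.076 both rescaled to the same total and with voom. With quantile normalization the values in crypts were nearer 0 for *Defa24* (-0.45), *Lyz1* (-0.22), *Itln1* (-0.17), *Defa30* (-0.14) and *Defa22* (-0.097) and farther for *Defa5* (-0.16), and those in tumors nearer 0 for *Lyz1* (0.11), *Defa22* (0.075) and *Mmp7* (0.063) and farther for *Defa5* (0.067). Summing all Defa genes gave -0.77 in crypts and 0.54 in tumors, beside medians of -0.73 and 0.50 over the Defa genes tested. The summed level was highest in wild-type crypt replicate 3 (2555 FPKM, other crypt libraries 711 to 1171). In tumors it was highest in replicate 2 of *Ctnnb1Δi.enh;ApcMin/+* (67.7 FPKM, other tumor libraries 13.7 to 23.2). The sums were not fitted without these libraries.

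Of the alternatives chosen after seeing the data, leaving out replicate 2 of *Ctnnb1Δi.enh;ApcMin/+* lowered the number of genes of the set that were higher in tumors from 10 to 5. It also turned the median of the other Defa genes (-0.11) and of the leukocyte markers (-0.045). Leaving out wild-type crypt replicate 3 turned the medians of stem cell markers (-0.21) and pancreatic acinar markers (-0.48) in crypts. With the replicate block, 0 genes were called in crypts and 0 in tumors, and the medians were -0.56 and 0.32. Same-numbered libraries did not deviate together (correlations of -0.047, -0.12 and 0.037 in crypts and 0.054, -0.090 and 0.053 in tumors), so no sign of pairing by number was seen. With 3 libraries per group, the smallest p of an exact permutation test is 0.1.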
